A study of Mus musculus with 4 samples.

Results

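Liver RNA of wild-type (WT) mice kept on a diet of 70% fructose for 3 weeks was set against liver RNA of WT mice on regular chow. This comparison takes 2 of the 4 arrays of the study and reads every gene that the array annotation ties to a probe set of its own. Of 22180 such genes, 11717 were read at or above a floor of 3.52 on at least 1 of the 2 arrays, where the floor is the middle of all genes' mean levels on the 4 arrays. Levels are log2 intensities as deposited, a difference is the level on the fructose array minus that on the chow array, and a difference of 1 is 2-fold.

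All mice were C57BL/6, older than 2 months when the fructose diet began, with free access to food and water on a cycle of equal light and dark, and both sexes were present in every group. The chow array held combined RNA of 7 WT livers, and the 3-week fructose array that of 7 other WT livers. Beside them stand 4 WT mice on 70% fructose for 2 weeks, used here for comparison, and 6 Chrebp null mice on the same diet for 2 weeks, which enter only the floor and the choice of probe set. Pooling leaves 1 value per group, so no spread between animals can be given, no test was possible, and every statement below describes these pools. The share of each sex in a pool, the hour of collection and the rest of either diet are not stated in the labels.

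Fructose taken up by the liver is phosphorylated by ketohexokinase and split into triose sugars that enter glycolysis below its main control point. From there the carbon can go to glucose, glycogen, lactate or newly made fatty acids. Sugar phosphates activate the transcription factor ChREBP (gene Mlxipl), insulin activates SREBP-1c (Srebf1), and both raise enzymes of fatty acid synthesis, while SREBP-2 (Srebf2) raises enzymes of cholesterol synthesis when membrane sterol is low.

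The liver label was borne out by marker genes. All 21 hepatocyte markers with a probe set of their own were above the floor, with Alb at 12.60 on chow and 12.72 after 3 weeks of fructose and a median difference of -0.09. Of 12 neutrophil markers only Cxcr2 was above it, and of 12 markers of fat, muscle and pancreas 3 were, none past 2-fold. In tissue RNA, fewer cells of a type and less RNA per cell cannot be told apart.

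Between chow and 3 weeks of fructose most genes differed little: 9880 genes, or 84.3%, lay within 0.5 of equality, and the median over all genes was -0.05. Above zero lay 43.5% of all genes, against which counts of list members above or below zero are to be read. At least 2-fold higher were 75 genes (0.64%), and at least 2-fold lower were 136 (1.16%). Counts of list members past 2-fold are to be read against these shares, or at 2 weeks against those of the 2-week pool given below. Removing the trend of the difference with level gave 93 higher and 105 lower, so the balance between the directions depends on the scaling. The 2-week pool over the same chow array had 91 genes at least 2-fold higher (0.783%) and 164 lower (1.41%) among 11622. Values of that comparison are given side by side below, and share the chow array. The WT fructose pools themselves differed by at least 2-fold in 276 of 11648 genes, against 211 of 11717 between 3-week fructose and chow. The robust standard deviation of the difference between the fructose pools was 0.35. In the scatter of levels, the genes furthest from equality include lipid-handling genes above the line and Acot2, Ildr2 and Igfbp1 below it.

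**Figure D1:**
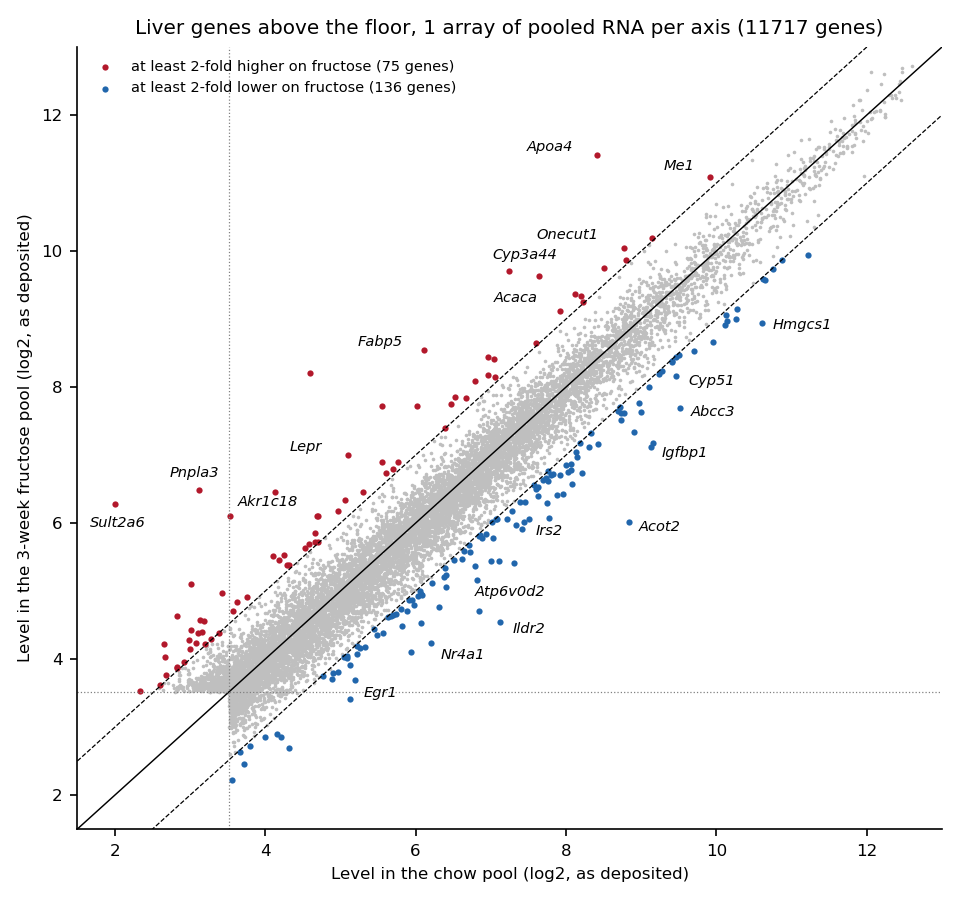
Level in the 3-week fructose pool (vertical axis) against level in the chow pool (horizontal axis), both log2 as deposited, 1 point per gene for the 11717 genes above the floor; the solid line is equality, dashed lines mark 2-fold, dotted lines the floor of 3.52. The 75 genes at least 2-fold higher on fructose are red and the 136 at least 2-fold lower are blue; some are named.

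Fatty acid synthesis stood higher on fructose. Of its 14 members read above the floor, 12 lay above zero (10 with arrays centred on their medians). Past 2-fold were 3 upward, where 0.64% of all genes were, and none downward. The list median was 0.45 against -0.05 over all genes. Pnpla3, a lipid droplet protein whose gene is driven by sugar and insulin, was read at 3.12 on chow, below the floor, at 6.49 after 3 weeks and at 5.20 after 2 weeks. It counts among the 3 here, and is also a member of the lists of ChREBP targets and of lipid droplet genes below. Against a chow level raised to the floor it was at least 2.97 higher, or 7.83-fold. Acaca, the cytosolic acetyl-CoA carboxylase that makes malonyl-CoA, was read at 7.92 on chow, 9.12 after 3 weeks and 9.48 after 2. The 3-week difference was 1.20, and the 2-week level was higher still. Me1, malic enzyme, which supplies NADPH, was read at 9.91 on chow and 11.09 after 3 weeks, with 11.20 in the 2-week pool, and Elovl6, which lengthens palmitate, at 10.48, 11.34 and 11.48 in the same order.

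Other core enzymes of the pathway were nearer to chow. Fasn, fatty acid synthase, was read at 10.15 on chow and 10.65 after 3 weeks, a difference of 0.50, against 11.40 after 2 weeks. Acly, which cleaves citrate to acetyl-CoA, stood at 0.41 at 3 weeks and 0.94 at 2. Srebf1 was read at 8.78 on chow and 8.82 after 3 weeks, so that it was level with chow, while the 2-week pool read 9.67. The list median at 2 weeks was 0.92, with 6 members at least 2-fold higher. Scd1, the stearoyl-CoA desaturase, was high on every array, at 11.91, 12.21 and 12.15. Mlycd and Slc25a1, which break down malonyl-CoA and export citrate from mitochondria, were the members below zero, at -0.31 and -0.30.

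**Figure D2:**
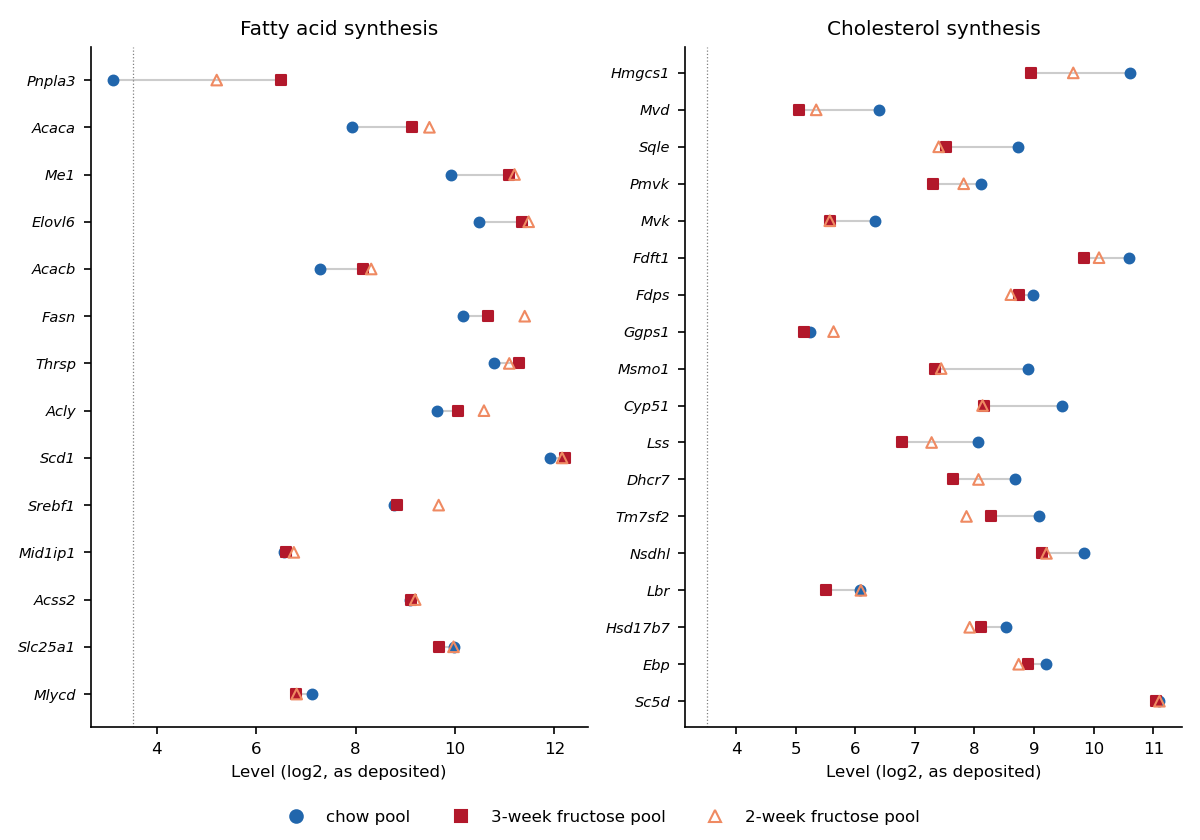
Levels (log2, as deposited) of fatty acid synthesis genes (left) and cholesterol synthesis genes (right) on the 3 WT arrays, 1 array of pooled RNA each: filled circles chow, filled squares 3 weeks of fructose, open triangles 2 weeks; the dotted line is the floor. Squares lie right of circles for Pnpla3, Acaca, Me1 and Elovl6, and left of circles for all 18 genes on the right. Of these, Ggps1 belongs to a side branch that does not lead to sterol, and its triangle lies clearly right of its circle.

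ChREBP targets as a list had a median of 0.30, with 14 of 18 above zero, and 0.56 at 2 weeks. Mlxipl itself was read at 9.25 on chow and 9.64 after 3 weeks, a difference of 0.39. Pklr, liver pyruvate kinase, stood at 0.51 against 1.32 at 2 weeks. Rgs16, a brake on G protein signalling, was read at 9.10 on chow, 10.08 after 3 weeks and 10.43 after 2, and at 0.98 was just short of 2-fold. Txnip, which limits glucose uptake, was level with chow at 0.03. Gpd1, which makes glycerol-3-phosphate, stood at -0.52 after 3 weeks and at 0.57 after 2, but a dimmer second probe set, below the floor on chow, stood at least 0.41 higher at 3 weeks, so its direction depends on the probe set. Fgf21, a liver hormone that curbs sugar intake, was read at 2.92, below the floor, on chow and 3.96 after 3 weeks, and its 1.04 shrinks to 0.44 with the chow level set at the floor.

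Fructose uptake and breakdown showed no common direction. Khk, ketohexokinase, was read at 9.91 on chow, 10.51 after 3 weeks and 10.76 after 2, and Tkfc, the glyceraldehyde kinase, stood at 0.27. Both were thus higher by less than 2-fold. Glyctk, glycerate kinase, stood at -0.85, and Slc2a9, a urate and sugar transporter, at -0.91. Aldoc, a brain-type aldolase, was the 1 member of 8 past 2-fold, at -1.05, and the median was -0.33. Slc2a5, the fructose transporter of the gut, was read at 5.53 and 5.79, and Slc2a2, the main sugar transporter of hepatocytes, at 11.18 and 10.84. In glycolysis (19 genes, median 0.03) and gluconeogenesis (11 genes, median 0.09) none was past 2-fold. Gpd2, the mitochondrial glycerol-3-phosphate dehydrogenase, stood at 0.91, G6pc, glucose-6-phosphatase, at 0.70, and Ppargc1a, a coactivator of gluconeogenic genes, at 0.76. Glycogen genes had a median of 0.16, with Ugp2 and Pygl, which make UDP-glucose and break glycogen down, at 0.57 and 0.53.

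Lipid handling held some of the most different genes. Apoa4, an apolipoprotein of triglyceride-rich particles, was read at 8.41 on chow, 11.41 after 3 weeks and 10.63 after 2 weeks. At 3.00 (7.99-fold) it stood alone among 22 lipoprotein genes, whose median was 0.07. Neighbouring apolipoprotein genes were near chow, Apoa1 at -0.07, Apoc3 at 0.17 and Apoa5 at 0.25. Mttp, which loads lipid onto apolipoprotein B, stood at 0.32, and Lpl, lipoprotein lipase, at -0.98. Fabp5, a fatty acid binding protein, was read at 6.12 on chow, 8.55 after 3 weeks and 7.76 after 2. Its other 3 probe sets stood at 2.58, at least 1.56 (read below the floor on chow) and 1.24, all past 2-fold in the same direction. Fabp4 and Fabp2 stood at 0.92 and 0.71, Cd36, a fatty acid transporter, at 0.62, and the liver form Fabp1 at 0.05.

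Among 24 genes of triglyceride synthesis and lipid droplets Cidec, which fuses droplets, was at least 2-fold higher beside Pnpla3, with 4.67 on chow and 5.72 after 3 weeks. G0s2, an inhibitor of adipose triglyceride lipase, was read at 6.97 on chow and 7.95 after 3 weeks, yet at 6.85 after 2 weeks. Droplet coats differed in direction, with Plin4 at 0.60, Plin2 at 0.43 and Plin5 at -0.42, and the acyltransferases Dgat1 and Dgat2 at -0.17 and -0.21. Oxidation genes had a median of -0.06 over 27 members. Cyp4a31, a fatty acid hydroxylase, stood at 1.05, Crat, which moves acetyl groups to carnitine, at 0.86, and Acads and Acaa1a, enzymes of short-chain and peroxisomal oxidation, at -0.82 and -0.88. Cpt1a, the gate of mitochondrial oxidation, stood at 0.12, and all 5 ketone body genes lay below zero (4 with the trend removed). Acot2, the mitochondrial thioesterase that frees fatty acids from coenzyme A, was read at 8.83 on chow, 6.01 after 3 weeks and 9.14 after 2, so at -2.82 the 3-week pool stood apart from both others. Its close copies Acot1 and Acot4 stood at 0.81 and -0.56, a dimmer second probe set of Acot4 stood at least 0.23 higher, and probes may not separate these genes.

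Lepr, the leptin receptor, was read at 5.10 on chow, 7.00 after 3 weeks and 7.36 after 2, and was 1.91 higher at 3 weeks. Leprot, which shares its start region with Lepr, stood at -0.38. Of 8 genes of leptin signalling none but Lepr passed 2-fold, and the signal inhibitor Socs3 stood at -0.57.

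Cholesterol synthesis stood lower at most of the steps read here. All 8 genes listed from acetoacetyl-CoA to squalene epoxide lay below zero, among them Ggps1 of a side branch that does not lead to sterol. So did all 10 from lanosterol to cholesterol (9 of the 10 with the trend of the difference with level removed, where the highest stood at 0.00). The medians of the lists were -0.78 and -0.76, and 3 and 4 members were at least 2-fold lower, where 1.16% of all genes were. The promoters of 4 of these enzymes are printed, with that of Pnpla3, a lipid droplet gene of the fatty acid synthesis list, which stood higher. They are shown because each holds the CCAAT box, which binds the factor NF-Y and often stands beside SREBP sites. The sequences are RefSeq promoters of GRCm38.p6, 250 bases before to 50 after the start site, 5′ to 3′ on the gene's strand. They lie at chr13:119690101-119690400, plus strand (Hmgcs1), chr5:4104648-4104947, minus strand (Cyp51), chr8:64733529-64733828, minus strand (Msmo1), chr10:76531355-76531654, plus strand (Lss) and chr15:84167566-84167865, plus strand (Pnpla3). Capitals mark CCAAT on either strand (ATTGG where it is on the other) and the SREBP element TCACNCCAC, which do not overlap here.
Hmgcs1: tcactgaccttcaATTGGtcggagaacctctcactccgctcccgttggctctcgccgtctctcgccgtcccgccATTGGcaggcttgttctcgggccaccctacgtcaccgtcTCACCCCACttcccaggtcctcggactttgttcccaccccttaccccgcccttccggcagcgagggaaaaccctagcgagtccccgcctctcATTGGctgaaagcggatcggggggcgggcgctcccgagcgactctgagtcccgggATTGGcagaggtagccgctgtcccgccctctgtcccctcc
Cyp51: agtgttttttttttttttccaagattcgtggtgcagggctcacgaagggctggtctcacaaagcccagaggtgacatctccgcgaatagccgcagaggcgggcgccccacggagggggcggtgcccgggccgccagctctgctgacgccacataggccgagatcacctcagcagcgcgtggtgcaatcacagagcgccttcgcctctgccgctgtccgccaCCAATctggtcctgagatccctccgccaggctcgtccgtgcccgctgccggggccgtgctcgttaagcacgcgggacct
Msmo1: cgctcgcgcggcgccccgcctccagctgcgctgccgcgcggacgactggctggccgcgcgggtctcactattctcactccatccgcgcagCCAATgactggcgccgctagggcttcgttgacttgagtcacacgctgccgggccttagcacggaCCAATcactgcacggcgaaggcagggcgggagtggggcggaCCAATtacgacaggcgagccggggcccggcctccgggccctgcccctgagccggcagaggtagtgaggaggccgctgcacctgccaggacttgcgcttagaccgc
Lss: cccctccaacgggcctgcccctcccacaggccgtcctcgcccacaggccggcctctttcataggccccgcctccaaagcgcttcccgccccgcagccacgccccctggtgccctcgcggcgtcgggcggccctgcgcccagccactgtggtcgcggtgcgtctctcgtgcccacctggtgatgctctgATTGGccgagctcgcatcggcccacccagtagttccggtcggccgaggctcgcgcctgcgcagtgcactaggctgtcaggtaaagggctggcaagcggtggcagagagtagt
Pnpla3: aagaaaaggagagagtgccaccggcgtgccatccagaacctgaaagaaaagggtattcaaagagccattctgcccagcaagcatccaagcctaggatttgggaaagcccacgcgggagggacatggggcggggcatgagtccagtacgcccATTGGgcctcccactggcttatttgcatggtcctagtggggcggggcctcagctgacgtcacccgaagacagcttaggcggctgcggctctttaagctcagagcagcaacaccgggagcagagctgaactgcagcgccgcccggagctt

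In this window CCAAT stood in all 15 of the listed cholesterol synthesis genes that had a promoter entry, Ggps1 included. Of the 9222 genes above the floor with an entry, 42.1% held CCAAT. Some genes have several entries and count if any holds it. Over genes with a single entry it stood in 13 of 13 against 38.6%. It also stood in 59 of 103 genes at least 2-fold lower (57.3%), in 21 of 51 at least 2-fold higher (41.2%) and in 10 of 13 fatty acid synthesis genes, so it is not a mark of the lower genes alone. The SREBP element TCACNCCAC stood in 1 of the 15, Hmgcs1, beginning 137 bases before the start, against 1.54% of all. The E-box CACGTG stood in 3 of the 15 against 11.6% of all, and the GC box GGGCGG in 13 against 66.0%. All were searched on both strands. A match describes letters and shows no binding.

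Hmgcs1, which condenses acetyl units into hydroxymethylglutaryl-CoA, was read at 10.61 on chow, 8.94 after 3 weeks and 9.66 after 2, a difference of -1.67 (3.18-fold). Mvk, Pmvk and Mvd, the enzymes that turn mevalonate into the isoprene unit, stood at -0.76, -0.79 and -1.34. Fdps, which joins these units, stood at -0.24, and Ggps1, which leads to protein prenylation and not to sterol, at -0.09. These 2 were the closest to chow of the 8. Sqle, squalene epoxidase, a rate-limiting step, was read at 8.73 on chow, 7.52 after 3 weeks and 7.40 after 2, the pools on fructose lying close together.

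Of the later steps, Msmo1, a sterol methyl oxidase, was read at 8.90 on chow, 7.34 after 3 weeks and 7.44 after 2. Cyp51, the lanosterol demethylase, was read at 9.46, 8.16 and 8.14 in the same order. For both, the WT fructose pools lay close together and well below chow. Lss, which closes the sterol rings, stood at -1.27 and Dhcr7, which makes cholesterol in the last step, at -1.05, against -0.78 and -0.62 at 2 weeks. Tm7sf2 and Nsdhl stood at -0.80 and -0.71, Ebp at -0.30 and Sc5d, read at 11.10 on chow, at -0.05. At 2 weeks the medians of both lists were -0.63.

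Several control genes of the pathway were lower too. Srebf2 was read at 7.29 on chow, 6.18 after 3 weeks and 6.95 after 2, a difference of -1.11. Insig1, which holds the SREBP complex in the endoplasmic reticulum and is itself an SREBP target, was read at 10.87 on chow and 9.87 after 3 weeks, while Insig2, which serves fasting liver, stood at 0.47. Scap, the SREBP escort, stood at -0.67 and Mbtps1, the protease that releases SREBP, at -0.47. Export genes also lay below zero, the biliary sterol pump genes Abcg5 at -0.56 and Abcg8 at -0.22 and the cell surface pump gene Abca1 at -0.20. Over 18 such genes the median was -0.28, with 2 at least 2-fold lower, and -0.01 at 2 weeks, when neither passed 2-fold. Mmab, a cobalamin enzyme that shares a promoter region with Mvk, stood at -1.37.

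Bile acid genes lay mostly below zero, 18 of 22, with a median of -0.32. At 2 weeks the median was -0.07, yet 2 members were at least 2-fold lower. Abcc3, the export pump of the blood side, was read at 9.52 on chow, 7.69 after 3 weeks and 8.80 after 2. It was the 1 member past 2-fold at 3 weeks. Cyp7b1 was read at 9.15 on chow, 8.46 after 3 weeks and 7.02 after 2. Cyp7a1, the rate-limiting enzyme of bile acid synthesis, stood at -0.41, Cyp27a1, which opens the alternative route, at -0.60, and Abcb11, the bile salt export pump, at -0.62. Nr1h4, the bile acid receptor FXR, stood at -0.39, while its target Nr0b2, a repressor, was level with chow at 0.07 after 3 weeks. After 2 weeks Nr0b2 was read at 6.03, against 7.18 on chow. Slco1a4, an uptake carrier of organic anions, stood at -1.36 at 3 weeks and -0.86 at 2, and its relatives Slco1a1 and Slco1b2 stood at 0.31 and 0.09.

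**Figure D3:**
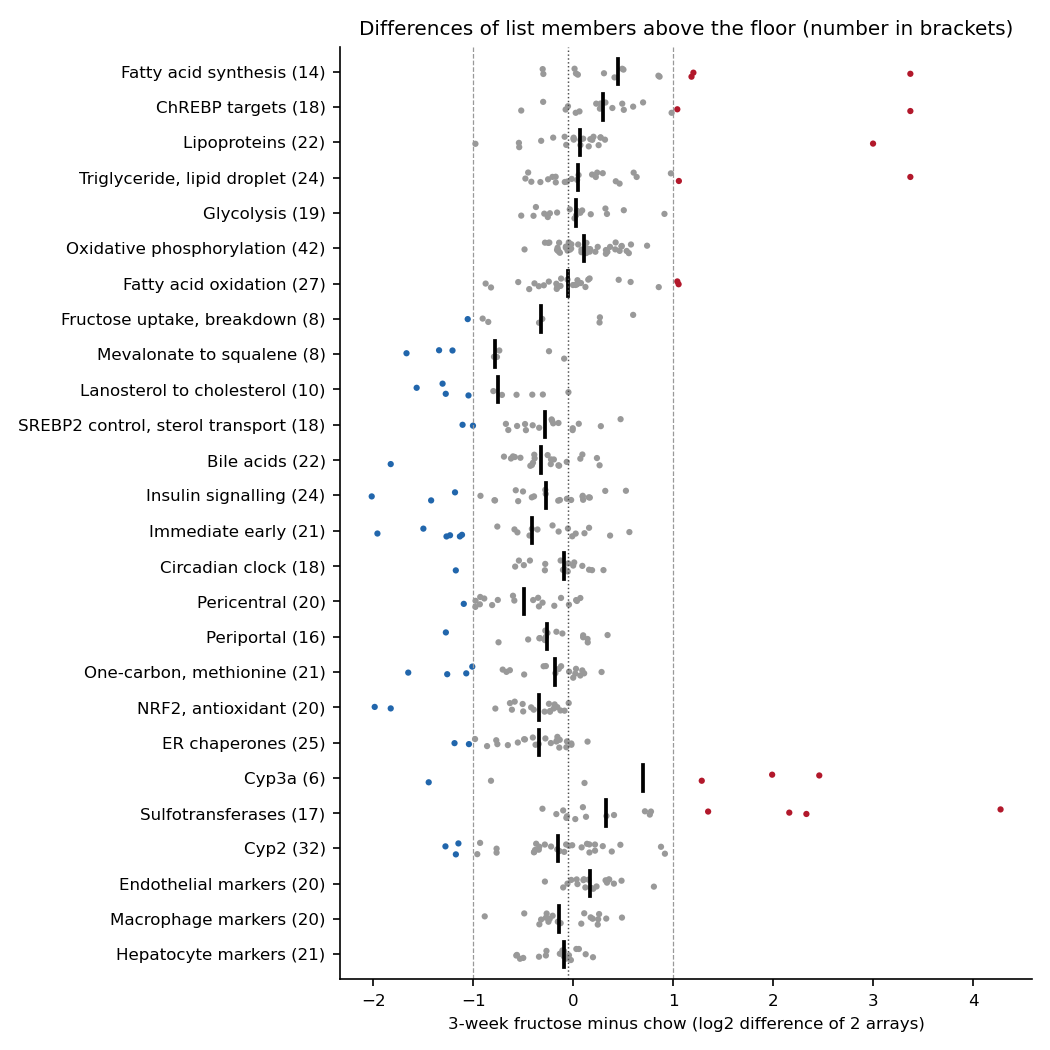
Log2 difference between the 3-week fructose and chow arrays (horizontal axis) of each member above the floor of the lists named (rows, number of members in brackets), with grey points under 2-fold, red and blue points at least 2-fold higher and lower, and a black bar at each median. The dotted line is the median over all genes, -0.05, and dashed lines mark 2-fold; no member of the lists from mevalonate to cholesterol lies above zero.

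Insulin-related genes were lower in part. Igfbp1, an insulin-repressed binding protein of insulin-like growth factors, was read at 9.14 on chow, 7.12 after 3 weeks and 8.57 after 2, a difference of -2.01 (4.04-fold). Irs2, the insulin receptor substrate that insulin represses, was read at 7.44, 6.01 and 6.18, so that both fructose pools were more than 2-fold below chow. Igfbp2 stood at -1.18 and Irs1 at -0.93. Other genes that insulin represses differed less: Pck1, a gluconeogenic enzyme, stood at -0.28, and G6pc, as given above, was higher. The receptor Insr stood at -0.06. Over 24 genes the median was -0.28, and 3 were at least 2-fold lower, against 1.16% of all genes.

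In the growth hormone axis Bcl6, a repressor that growth hormone lowers, was read at 7.11 on chow, 5.45 after 3 weeks and 7.28 after 2. Onecut1, a liver transcription factor, was read at 8.77, 10.05 and 8.12. For both, the 3-week pool stood apart and the 2-week pool lay near chow or on its other side. Socs2 and Igf1, targets of STAT5, were level with chow at -0.08 and 0.10, and the 14 genes had a median of -0.10.

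Immediate early genes, which are induced within minutes of a stimulus, stood lower in the 3-week pool. Of 21 above the floor 16 lay below zero, with a median of -0.41. At least 2-fold lower were 6, where 1.16% of all genes were, and none passed 2-fold upward. Nr4a1, an orphan nuclear receptor, was read at 6.20 on chow, 4.24 after 3 weeks and 4.92 after 2. Egr1, a zinc finger factor, was read at 5.19, 3.69 and 7.65, so the fructose pools lay on opposite sides of chow. Its corepressor Nab2, singled out after its value was seen, stood at -1.46. Sik1, a kinase induced by cAMP, was read at 8.43, 7.16 and 8.25, and Junb, Jund and Btg2 stood at -1.13, -1.23 and -1.11. The second probe set of Jund, dimmer than the first, stood at 0.10. Fos and Fosb were below the floor on all these arrays, Dusp1 stood at -0.44 against 0.93 at 2 weeks, and Myc was higher, at 0.56.

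Clock genes were mostly near chow, with a median of -0.10 over 18. Dbp, an output gene with a strong daily rhythm in liver, was read at 9.70 on chow, 8.53 after 3 weeks and 9.63 after 2. Per1 and Nr1d1 stood at -0.54 and -0.49, Arntl, which peaks opposite to Dbp, at -0.28, and Clock at 0.30. Whether the hour of collection had a part in the values of Dbp and the immediate early genes was not tested.

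**Figure D4:**
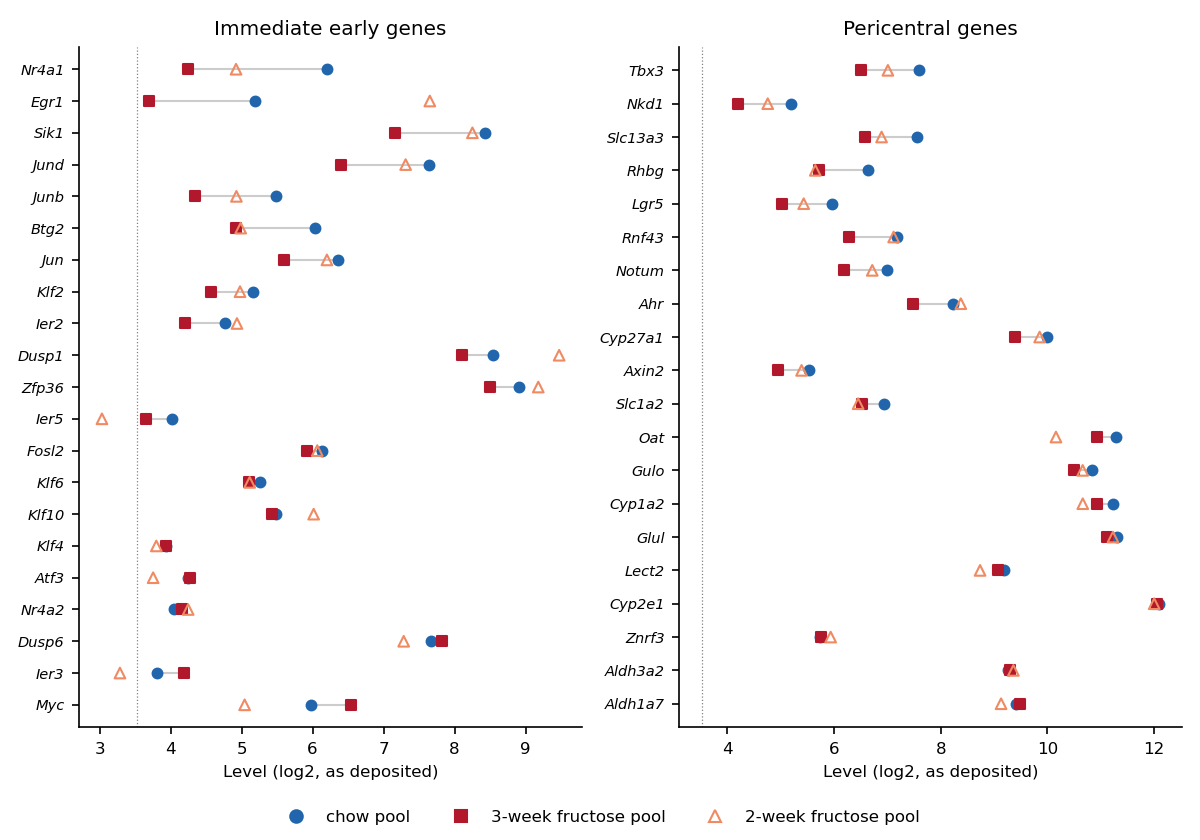
Levels (log2, as deposited) of immediate early genes (left) and pericentral genes (right) on the 3 WT arrays, 1 array of pooled RNA each: filled circles chow, filled squares 3 weeks of fructose, open triangles 2 weeks; the dotted line is the floor. Squares lie left of circles for Nr4a1, Sik1, Jund and Junb and, among pericentral genes, from Tbx3 to Notum, while the triangle of Egr1 lies at 7.65, right of both.

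Genes of pericentral hepatocytes, which lie around the central vein and depend on Wnt signals, had a median of -0.49, and 17 of 20 lay below zero. Tbx3, a transcription factor of the Wnt-dependent zone, was read at 7.59 on chow, 6.50 after 3 weeks and 7.01 after 2. Nkd1, Lgr5, Rnf43, Notum and Axin2, feedback targets of Wnt signalling, stood at -0.98, -0.93, -0.89, -0.81 and -0.59. At 2 weeks the same genes stood between -0.52 and -0.05. The enzymes that define the zone were closer to chow: Glul, glutamine synthetase, was read at 11.31 and 11.12, Cyp2e1 at 12.09 and 12.05, and Cyp1a2 at 11.23 and 10.92. A dimmer second probe set of Glul stood at 0.79. The central vein signals Wnt2, Wnt9b and Rspo3, made by endothelial cells, stood at 0.36, 0.03 and 0.11. Periportal genes had a median of -0.27 over 16, led by Cdh1, E-cadherin, which was read at 8.03, 6.75 and 7.73. Most periportal enzymes were near chow, such as Cps1 at -0.11 and Arg1 at 0.14.

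Methyl-group and sulphur amino acid metabolism held 4 of 21 genes at least 2-fold lower, against 1.16% of all genes, with a median of -0.18. Ahcy, which clears S-adenosylhomocysteine, was read at 10.26 on chow and stood at -1.26 after 3 weeks and -1.09 after 2. Its dimmer second probe set, at 5.03 on chow, stood at 0.11. Cth, which makes cysteine, was read at 10.75, 9.74 and 9.77, and Sardh, sarcosine dehydrogenase, at 10.64, 9.57 and 10.10. Both fructose pools lay below chow for Ahcy, Cth and Sardh. Csad, which makes the precursor of taurine, was read at 6.81, 5.16 and 9.07, with the pools on opposite sides. Mat1a and Gnmt, which make and use S-adenosylmethionine, were level with chow at -0.12 and 0.09. None of 35 genes of amino acid breakdown passed 2-fold, and 27 lay below zero, with Gpt at -0.78 and Agxt at -0.70.

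The families of drug and steroid metabolism split between members. Sulfotransferases had 4 of 17 members at least 2-fold higher, against 0.64% of all genes, and a median of 0.33. At 2 weeks the median was -0.71, with 5 at least 2-fold lower, against 1.41% of all genes. Sult2a6 was read at 2.00 on chow, 6.27 after 3 weeks and 2.24 after 2, and counted from the floor it was at least 2.75 higher. Sult2a3 was read at 4.13, 6.46 and 3.42, and Sult3a2 at 5.55, 7.71 and 2.59. Sult3a1, read at 7.62, 8.02 and 3.50, was near chow after 3 weeks and just under the floor after 2. These enzymes add sulphate to steroids, bile acids and amines, and several are made mainly in female liver. Sult1c2 stood at 1.35 and 0.52, on the same side in both pools.

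Some Cyp3a members showed the same contrast between the pools. Cyp3a44 was read at 7.24 on chow, 9.71 after 3 weeks and 4.23 after 2, and Cyp3a16 at 7.64, 9.63 and 2.28. Cyp3a25 stood at 1.29 and 0.50, Cyp3a59 at -1.44 and -1.31, and Cyp3a11, the main drug-metabolising form, at -0.82 and -0.31. Of 32 Cyp2 genes none was at least 2-fold higher and 3 were lower, against 1.16% of all genes. These were Cyp2c54 at -1.28, Cyp2b10, a target of the receptor CAR, at -1.17, and Cyp2c55 at -1.15, whose dimmer second probe set stood at 0.32. Akr1c18, which inactivates progesterone, was read at 3.53, 6.10 and 3.16. Carboxylesterases differed in direction, with Ces2e at 1.14 and Ces2a at -1.30, both singled out after their values were seen. Members of these families are near copies, and probes may read more than the gene named.

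Sex-biased genes of mouse liver were read beside these families. Of 22 female-biased genes 2 were at least 2-fold higher and 2 lower after 3 weeks, with a median of 0.04, and at 2 weeks the median was -0.75 with 9 lower. The 17 male-biased genes had medians of 0.18 and -0.15. Atp6v0d2, a proton pump subunit in the female-biased list, was read at 6.84 on chow, 4.71 after 3 weeks and 3.97 after 2, and A1bg at 8.14, 6.97 and 3.85. Xist was read at 8.84, 8.77 and 8.56. Of Y-linked genes, Kdm5d was read at 4.02, 4.07 and 4.42, Eif2s3y at 6.12, 6.00 and 6.51, and Uty at 4.03, 4.67 and 4.87. These Y-linked genes thus did not share a direction at 3 weeks, whereas at 2 weeks all of them lay above chow and Xist below it, each by less than 2-fold. The part of the sex mix of the pools in the Sult and Cyp3a values was not tested.

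**Figure D5:**
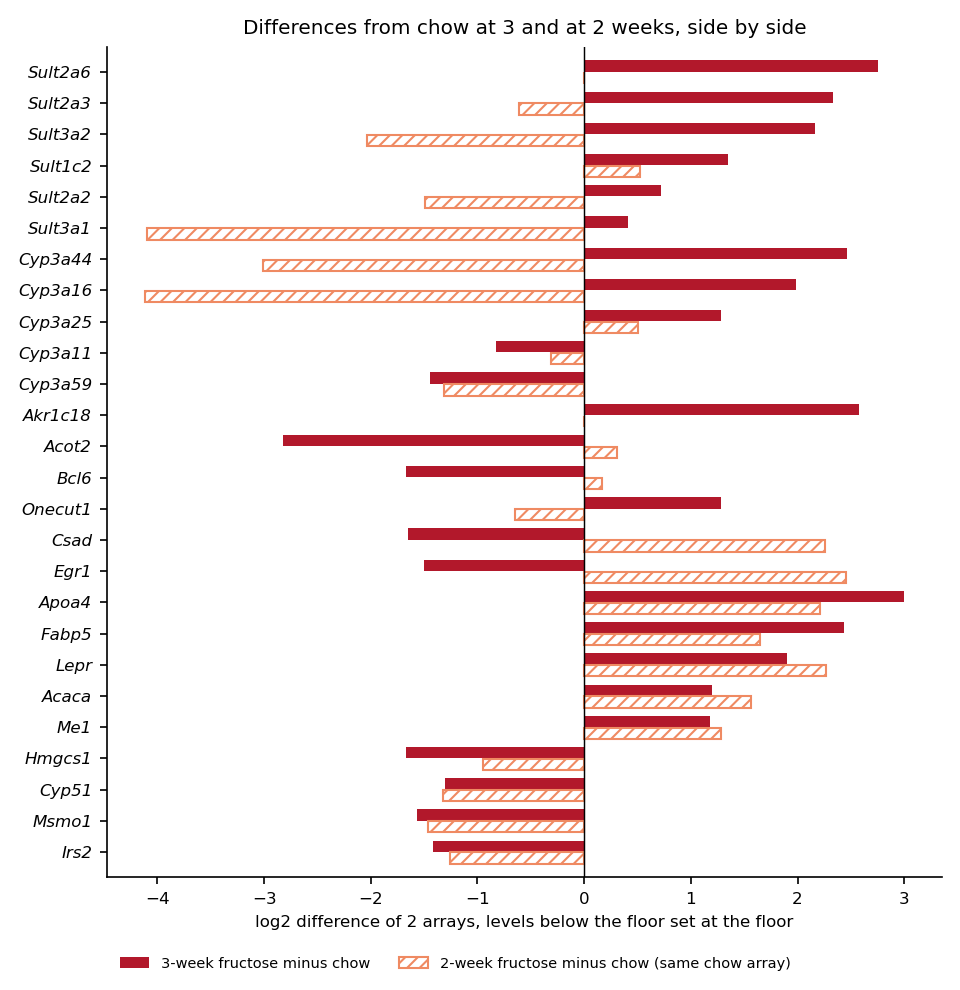
Log2 differences from the chow array at 3 weeks (filled bars) and 2 weeks (hatched bars) of fructose for genes named in the text, dim levels raised to the floor; both sets of bars share the chow array. Bars of Sult3a2, Cyp3a44, Cyp3a16, Csad and Egr1 point opposite ways, whereas those of Apoa4, Fabp5, Lepr, Acaca, Me1, Hmgcs1, Cyp51, Msmo1 and Irs2 point the same way.

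Stress pathways were lower or near chow by their list medians, with some members higher. All 20 genes of the NRF2 antioxidant response lay below zero, also under other scalings tried, with a median of -0.34, but the median at 2 weeks was 0.01. Osgin1, an oxidative stress gene that acts on growth, was read at 9.16 on chow, 7.17 after 3 weeks and 7.59 after 2. Apart from it and Abcc3, members were under 2-fold, such as Srxn1 at -0.61, Nqo1 at -0.42 and Gclc, which makes glutathione, at -0.09. Chaperones of the endoplasmic reticulum had 24 of 25 below zero and a median of -0.34. Creld2 and Sdf2l1, both induced by misfolded protein, stood at -1.19 and -1.04, against -1.03 and -0.71 at 2 weeks. Hspa5, the main chaperone, stood at -0.34 and Xbp1, the factor that drives many of these genes, at -0.02. In the amino acid stress response Sesn2 stood at -1.05, Trib3 at -0.78 and Atf4 at -0.42. Heat shock genes had a median of 0.00. Among them Hspa8 stood at 0.04 on its brightest probe set and at 0.56, 1.06 and 1.31 on dimmer sets. The p53 targets and death genes had a median of 0.07. Cdkn1a, a cell cycle inhibitor among them, was at least 2-fold higher, read at 4.53, 5.63 and 6.75.

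Immune and inflammatory genes differed little as lists. Acute phase genes had a median of -0.15 over 26, with Saa3, read at 7.00, 5.44 and 6.21, as the 1 past 2-fold, and Crp, Hp and Fgb between -0.20 and -0.01. Gbp10, an interferon-induced GTPase, was read at 7.78, 6.08 and 6.89 among 28 interferon genes with a median of -0.02. The class II antigen genes H2-Ab1 and H2-Aa, singled out after their values were seen, stood at -1.19 and -1.05, and H2-Eb1 at -0.57. Their regulator Ciita stood at -0.04, and lymphocyte markers summed to an intensity of 556 on chow, 479 after 3 weeks and 572 after 2. Macrophage markers had a median of -0.14 over 20 and a summed intensity of 2808 on chow, 2764 after 3 weeks and 3409 after 2. The Kupffer cell markers Clec4f and Adgre1 stood at 0.25 and -0.15. Endothelial markers lay above zero for 16 of 20, with sums of 4224, 4745 and 5015 and Lyve1, a sinusoid marker, at 0.81. Stellate cell and fibrosis genes had a median of -0.20, with Col1a1 at -0.02 and Acta2 at -0.03. Cholangiocyte markers summed to 618, 471 and 655 with Krt19 below the floor. These sums rest mostly on Krt8 and Krt18, which stood at -0.64 and -0.33, and a dimmer second probe set of Krt18 stood at 0.55. Of the 7 cholangiocyte markers above the floor 3 lay above zero and 4 below, with a median of -0.04. The part of these cells in the values of other genes was not tested.

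Cell division genes lay higher in part. Of 28 with a probe set of their own, 14 were above the floor, of which 10 lay above zero and 3 below. Their median was 0.25, though it was -0.10 with a floor at the 75 percentile. Ect2, a cytokinesis factor, was read at 4.69 on chow, 6.11 after 3 weeks and 5.04 after 2, and Rrm2, which makes deoxynucleotides, at 4.32, 5.38 and 5.15. Mki67 and Ccnb2 stood at 0.99 and 0.96, from dim chow levels of 4.59 and 3.81, whereas Top2a, Birc5 and Cdk1 were below the floor. Ccnd1, the lowest member by difference, was brighter, read at 8.38 on chow, and stood at -0.53. Oxidative phosphorylation had a median of 0.10 over 42 genes. Read by the brightest probe set of each gene, none was past 2-fold, the highest being Cox7b at 0.74. Cycs stood at 0.53 on that set, but its dimmer sets stood at 1.11, 0.90, 0.90 and 0.25. Purine genes had a median of -0.21, with Ppat, the first step of synthesis, at -0.79 and Xdh, which makes urate, at -0.45.

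Small nucleolar and Cajal body RNAs held many of the higher genes. Of 61 snoRNA and scaRNA genes read above the floor, 12 passed 2-fold upward (0.64% of all genes did) and none downward, although their median was 0.18. These RNAs guide chemical modification of ribosomal and spliceosomal RNA. Snord73b was read at 4.59 on chow, 8.21 after 3 weeks and 7.19 after 2, and Scarna2 at 6.02, 7.72 and 7.10. Snord49a, at 8.12, 9.37 and 7.93, lay above chow at 3 weeks and not at 2. All were singled out after their values were seen. Protein-coding genes numbered 55 among the 75 higher and 131 among the 136 lower, against 11010 among all 11717 genes above the floor. Their share among the lower genes was thus near that among all genes. Of 50 ribosomal protein genes 2 were at least 2-fold higher, Rps27 at 1.41 and Rps18 at 1.40, with a median of 0.07.

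Second probe sets gave a limited check. Only 10 genes past 2-fold had at least 2 probe sets at or above the floor, all sets had the same sign in 4 of them, and all were past 2-fold in 1, Fabp5. Ildr2, a membrane protein tied to liver lipid metabolism, was read at 7.12 on chow and 4.54 after 3 weeks, while its dimmer other set stood at 0.09. Such sets share the RNA and are no replicates.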

How the data were processed

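The values are log2 probe set levels that the authors deposited, 1 column per array, made with the affy package and RMA per the submitters' processing notes. The versions, the settings and joint normalisation of the 4 arrays were not given in the sources used here. Columns outside the 4 samples numbered 0. The platform annotation pairs 23521 of 41345 probe sets with 1 gene symbol, 1814 with several and 16010 with none. Only the first were named, a gene with several was read from the brightest on average, and all other steps are differences of log2 columns. Genes under the floor on both arrays were left out, and a level below it gives only a bound.

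With 1 array of pooled RNA per side no test was possible, and precision is limited by the number of arrays. Lists are described by counts past 2-fold and by medians. The comparison, the lists and the promoter motifs were chosen with earlier results of these data known. The rule for named genes took Mlxipl, the 15 largest differences in each direction with levels below the floor set at it (leaving out undescribed symbols and small RNAs), and from each of 69 lists its first 3 symbols and up to 4 further members with the largest differences. Not all are printed, and other list members, as well as the genes so described in the text, were singled out after their values were seen. Symbols match RefSeq promoter tables of GRCm38.p6 by name for 9222 genes. Alternatives changed the floor, the normalisation, the choice of probe set, the threshold and the fructose array. Code was tested on simulated data; it used matplotlib 3.10.9, statsmodels 0.14.6, pandas 2.3.3, numpy 2.4.6 and scipy 1.17.1 under Python 3.11.15.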

Additional observations from a re-analysis of the deposited data

Results flagged for a closer look

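For 5 genes the WT fructose pools lay at least 2-fold from the shared chow array on opposite sides, 1 array each, so the difference between the pools was not tested. With levels below the floor set at it, Egr1 stood at -1.50 at 3 weeks and 2.46 at 2 weeks, and Csad at -1.65 and 2.25. Cyp3a44 stood at 2.46 and -3.01, Cyp3a16 at 1.99 and -4.12, and Sult3a2 at 2.16 and -2.03. The median of the 6 Cyp3a genes, which include Cyp3a44 and Cyp3a16, stood at 0.70 at 3 weeks and -0.81 at 2. The other 4 did not share the contrast as a group: Cyp3a11 stood at -0.82 and -0.31, Cyp3a13 at 0.11 and -0.22, Cyp3a25 at 1.29 and 0.50, and Cyp3a59 at -1.44 and -1.31. The median of the sulfotransferases, which include Sult3a2, stood at 0.33 and -0.71. The lists of Egr1 and Csad had medians on the same side of chow in both pools, at -0.41 and -0.18 for immediate early genes and at -0.18 and -0.19 for methyl-group and sulphur amino acid metabolism.

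Probe sets outside the gene comparison also carried signal. Of 848 above the floor that are annotated with several symbols, 7 were at least 2-fold higher after 3 weeks and 10 were lower. Of 5361 with no symbol in the annotation, 499 (9.31%) were at least 2-fold higher and 220 (4.10%) lower, both larger shares than among named genes. What these probe sets read is not analysed here.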

How the results depend on the processing

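The counts of 75 higher and 136 lower genes stayed within 1.5 times under 8 alternatives: no floor (80 and 140), centred arrays (67 and 154), quantile normalisation (75 and 133), the trend with level removed (93 and 105), the mean of a gene's probe sets (72 and 125), every probe set on its own (104 and 137), levels set at the floor (58 and 128) and the 2-week array in place of the 3-week array (91 and 164). The 2-week array makes another comparison, and similar counts from it do not mean that the same genes passed. The counts were 418 and 826 at 1.5-fold, 14 and 15 at 3-fold, and 38 and 77 with the mean of both WT fructose arrays. A floor at the 75 percentile left 40 higher and 103 lower. Of 75 named genes past 2-fold, 59 stayed so in every setting that changed only the processing of the arrays. Scalings moved the median of all genes by -0.04 to 0.06. Of lists with a median at least 0.2 from zero, these had one of the other sign under an alternative. The median of the Cyp3a list was -0.81 with the 2-week array and -0.42 with the mean, that of the sulfotransferases -0.75 and -0.16, and that of cell division genes -0.0150 and -0.0075, or -0.10 with the higher floor. The lists of Cyp1 genes with their receptor and of NRF2 genes had 0.067 and 0.011 with the 2-week array, and the erythroid list, with 1 gene above the floor, had 0.098 with no floor. With the 2-week array 108 of the 408 named genes had the other sign, 13 of them among the 75 past 2-fold: Acot2 stood at 0.31, Acot9 at -0.14, Akr1c18 at -0.36, Bcl6 at 0.16, Csad at 2.25, Cyp3a16 at -5.35, Cyp3a44 at -3.01, Egr1 at 2.46, Onecut1 at -0.65, Sesn2 at 0.13, Sult2a3 at -0.71, Sult3a2 at -2.96 and Ugt2b37 at -0.37. With the mean of both arrays 42 had the other sign, 5 of them among those 75: Csad at 0.30, Cyp3a16 at -1.68, Cyp3a44 at -0.28, Egr1 at 0.48 and Sult3a2 at -0.40. The cause was not tested. No paired analysis was possible because each group has 1 array. Near the floor a difference is a bound, and no setting supplies a spread between mice.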
